A study of Mus musculus with 12 samples.

Results

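Immunoglobulin kappa variable (Igkv) genes encode the variable part of the kappa light chain of antibodies. Described here were the 117 genes whose symbol starts with Igkv in the deposited expression tables of colon and whole blood, out of 53801 genes in the count table. They were measured by total RNA sequencing in 12 libraries, 6 of colon and 6 of whole blood, taken from the same 6 male C57BL/6 mice. Mice 1, 2 and 4 were labelled ulcerative colitis (UC) and drank water with 1.5% dextran sulfate sodium (DSS), a colitis-inducing polymer, for 7 days, and mice 7, 8 and 9 were labelled control and drank the same water without DSS. All were killed on day 8. Ribosomal RNA was removed from colon libraries and ribosomal plus globin RNA from blood libraries, so tissue and library kit cannot be told apart. The measure followed is usage, meaning the share of the summed Igkv count of a library that fell on each gene.

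During B cell development, recombination joins 1 Igkv gene to 1 of the short Igkj segments upstream of the constant gene Igkc, and the joined gene is then transcribed at a high level. The V gene that a B cell or antibody-secreting plasma cell carries is therefore read directly in its RNA. Whole blood holds circulating B cells, which mostly carry surface IgM and IgD, whereas the gut wall is known for plasma cells that secrete IgA together with the joining chain Jchain.

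The Igkv locus spans chr6:67555497-70704177 in GRCm38, with Igkc beyond its end at chr6:70726435-70726966. GENCODE annotates 160 Igkv genes there, 100 functional and 60 pseudogenes. The 117 members were 98 functional genes and 19 pseudogenes, and the remaining 43 had no count in any library. Each gene is counted over its exons, which add up to 209 to 501 bases. Genes are compared here at the 3′ end of the V exon. There the last cysteine codon opens the third complementarity-determining region (CDR3), the loop that forms the centre of the antigen-binding site. The last 48 coding bases of the genes on which the results turn are shown 5′ to 3′ on the coding strand, with capitals from the last in-frame cysteine codon onwards. All lie in the terminal coding exon of their gene. Shown first are the leading genes of the 6 colon libraries, followed by Igkv9-124, which came second in the colon of mouse 1.
Igkv12-44 (chr6:69814631-69814678, minus strand): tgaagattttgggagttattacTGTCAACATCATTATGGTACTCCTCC
Igkv6-15 (chr6:70406469-70406516, minus strand): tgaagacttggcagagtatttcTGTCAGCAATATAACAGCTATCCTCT
Igkv6-23 (chr6:70260409-70260456, minus strand): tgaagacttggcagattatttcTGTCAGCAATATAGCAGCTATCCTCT
Igkv6-17 (chr6:70371946-70371993, plus strand): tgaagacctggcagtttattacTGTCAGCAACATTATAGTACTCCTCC
Igkv3-7 (chr6:70607989-70608036, plus strand): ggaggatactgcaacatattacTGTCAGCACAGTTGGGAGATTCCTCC
Igkv9-124 (chr6:67942074-67942121, minus strand): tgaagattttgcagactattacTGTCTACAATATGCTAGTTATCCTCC

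Shown next are genes with a lower share in colon than in blood, then the pair Igkv4-59 and Igkv4-72, which had a higher share in colon.
Igkv3-4 (chr6:70672330-70672377, plus strand): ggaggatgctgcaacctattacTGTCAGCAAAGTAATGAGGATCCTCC
Igkv8-24 (chr6:70216858-70216905, minus strand): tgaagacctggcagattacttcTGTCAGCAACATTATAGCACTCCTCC
Igkv6-32 (chr6:70074024-70074071, minus strand): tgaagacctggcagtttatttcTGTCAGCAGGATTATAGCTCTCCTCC
Igkv5-39 (chr6:69900424-69900471, minus strand): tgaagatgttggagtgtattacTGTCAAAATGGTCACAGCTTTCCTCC
Igkv4-59 (chr6:69438218-69438265, minus strand): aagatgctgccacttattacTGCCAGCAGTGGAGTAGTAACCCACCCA
Igkv4-72 (chr6:69226854-69226901, minus strand): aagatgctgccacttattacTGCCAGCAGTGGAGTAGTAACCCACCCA

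Igkv4-59 and Igkv4-72 were identical over these 48 bases, and Igkv6-15 and Igkv6-23 differed at 2 of 48. Igkv6-17 differed from Igkv6-15 at 11 of 48 although both belong to subgroup 6. Counts of close relatives could be split between them by the authors' counting. Of the 117 members, 70 had no window of 100 bases in common with another Igkv transcript, while 2 were unique in under 50% of theirs. Among the genes shown, Igkv12-44 was unique in 95.4% of such windows, Igkv6-17 in 80.9%, Igkv4-59 in 79.6% and Igkv3-7 in 96.5%. All windows were unique for Igkv6-15, Igkv6-23, Igkv3-4, Igkv8-24, Igkv6-32, Igkv5-39 and Igkv4-72.

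Total counts ranged from 69181049 to 103662306 in colon and from 80867247 to 142536804 in blood. The non-coding 7SL RNAs took 4.90% to 6.50% of colon counts and 35.9% to 65.4% of blood counts. Tissue was taken from the tissue field of the labels, since the source field names the other tissue in every sample. The erythroid gene Alas2 had 497 to 4595 counts in colon and 4678666 to 7108744 in blood, and the epithelial keratin Krt8 had 330742 to 496956 in colon and 0 to 88 in blood, as those tissue labels say. The disease labels did not go with the neutrophil gene S100a8, a marker of inflammation. Its normalized counts in colon were 5370, 33.1 and 22.3 in mice 1, 2 and 4, labelled UC, and 1888, 75.6 and 13337 in mice 7, 8 and 9, labelled control. In blood the values of the same mice were 88578, 14299 and 11466, then 37179, 8642 and 101913. Groups are therefore named below by their labels only. Comparisons of shares between colon and blood do not use them. The main edgeR comparison of count levels between tissues fits a mean for each combination of tissue and label and weights both labels equally.

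The summed Igkv count was small beside the whole library. Colon libraries held 2707, 11080, 18849, 6927, 4032 and 8488 Igkv counts (mice 1, 2, 4, 7, 8 and 9), and blood libraries 3363, 1997, 6154, 5155, 2914 and 2992. In CPM, the count scaled to the library's total, this was 97.0 ± 53.1 (SD, n = 6) in colon and 31.1 ± 9.79 (SD, n = 6) in blood, and the ranges of 29.0 to 181.8 and 20.8 to 44.8 overlapped. In CPM of only the genes in each normalized table, the means were 111.2 and 76.5. How much Igkv RNA colon held relative to blood therefore depended on the reference, whereas usage within the Igkv genes did not.

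Set against its own constant gene, Igkv RNA separated the tissues. The ratio of the summed Igkv count to the Igkc count was 0.668 to 0.974 in colon (mean 0.841 ± 0.126, SD, n = 6) and 2.20 to 3.13 in blood (mean 2.76 ± 0.351, SD, n = 6). These are ratios of counts and not of counts per length. Igkc had 3647 to 20954 counts in colon and 789 to 1968 in blood. The 5 Igkj genes went the other way, with 26 to 133 summed counts in colon and 88 to 396 in blood. The ratio of the Igkv sum to the sum of the heavy-chain variable (Ighv) genes, their counterparts on the heavy chain, was 0.934 to 1.37 in colon and 0.798 to 0.961 in blood.

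Igkv counts were spread over fewer genes in colon than in blood, in every mouse. Diversity was taken as the effective number of genes, the exponential of the Shannon entropy of the shares, which is the number of equally used genes that would give the same entropy. It was 31.6, 45.8, 40.2, 37.3, 32.4 and 36.7 in the colon of mice 1, 2, 4, 7, 8 and 9, and 60.8, 53.8, 62.5, 63.1, 58.4 and 50.8 in their blood. Means were 37.4 ± 5.23 (SD, n = 6) and 58.2 ± 4.95 (SD, n = 6), and the highest colon library lay below the lowest blood library. No p-value is given for this score because it is summed over the members.

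**Figure D1:**
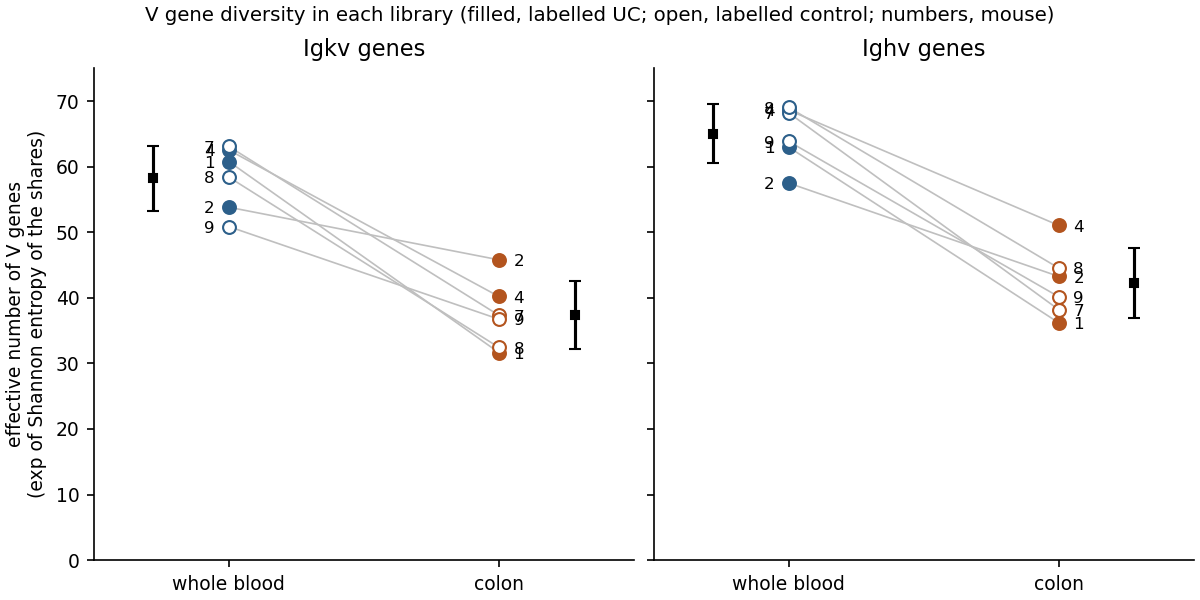
The vertical axis gives the effective number of V genes in each library for Igkv (left) and Ighv (right), with lines joining the blood and colon of 1 mouse. Black squares and bars are mean and SD of 6 libraries. Every line falls from blood to colon, and the Igkv values of 31.6 to 45.8 in colon and 50.8 to 63.1 in blood do not overlap.

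The difference remained at equal numbers of counts. After each library was thinned to 1997 Igkv counts, the smallest sum, the effective number averaged 36.9 in colon (31.4 to 45.3) and 57.7 in blood (50.5 to 62.2), and 62.7 to 76.3 genes were detected in colon against 78 to 97.6 in blood. Unthinned, 63 to 89 genes had a count in colon and 78 to 100 in blood. The inverse Simpson index, which weights the leading genes more, was 18.6 to 34.7 in colon and 36.7 to 49.3 in blood. The Ighv genes showed the same separation, at 36.2 to 51.0 effective genes in colon and 57.5 to 69.0 in blood.

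In colon, a few genes carried much of the Igkv count, and the 6 libraries had 5 different leading genes. The leading gene held 6.39% to 16.7% of the Igkv count of a colon library and 4.33% to 6.35% of that of a blood library. The first 10 genes held 44.2% to 55.5% in colon and 32.5% to 41.9% in blood, and 9 to 12 genes against 14 to 18 were enough to reach 50%. At least 5% of the Igkv count fell on 3, 2, 6, 2, 3 and 6 genes in the colon of mice 1, 2, 4, 7, 8 and 9, and on 0, 1, 1, 0, 1 and 3 genes in their blood. Igkv6-15 reached 5% in 4 colons, Igkv1-110 in 3, and Igkv10-96 and Igkv6-23 in 2 each, whereas 11 other genes did so in 1 colon.

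**Figure D2:**
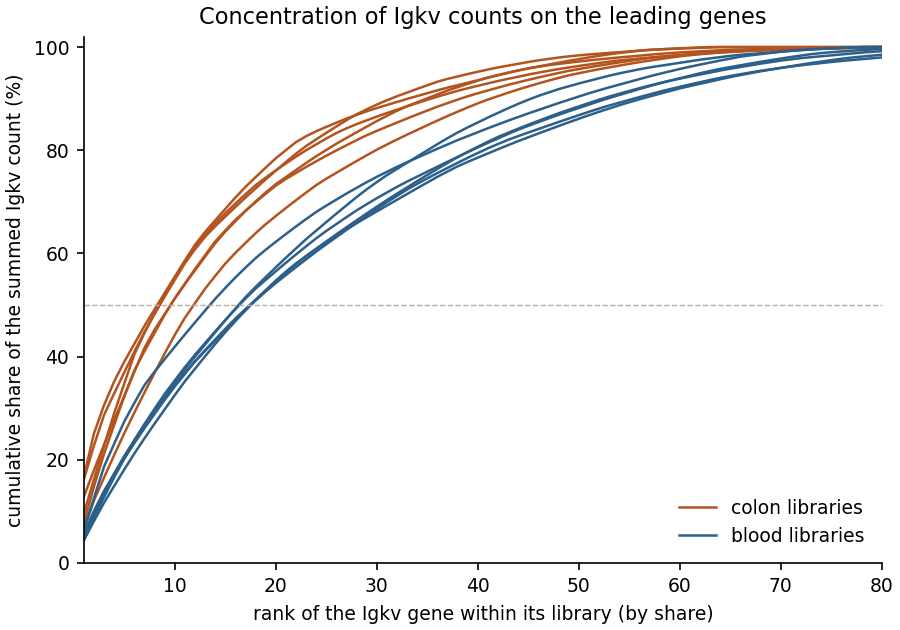
Each line is 1 library: the horizontal axis ranks its Igkv genes by share and the vertical axis adds the shares up in percent. Colon lines cross the dashed 50% line after 9 to 12 genes, against 14 to 18 in blood, and only the least concentrated colon and the most concentrated blood (mice 2 and 9) run close together at the start.

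Igkv12-44 led the colon of mouse 1 with 16.7% of its Igkv count (451 of 2707 counts, 95% Wilson interval 15.3% to 18.1%). In the other colon libraries it held 1.09% to 3.61%, and in blood 1.28% to 2.55%, so that 1 colon library stood far from the other 11. The same colon library gave 8.39% to Igkv9-124 (7.40% to 9.49%), which held 0.472% to 3.77% in the other colons and 0.201% to 1.10% in blood. Intervals of this kind cover counting error only.

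Igkv6-15 led the colon of mouse 8 with 16.1% (649 of 4032 counts, 95% Wilson interval 14.99% to 17.3%) and the colon of mouse 2 with 6.39%. Its shares were 3.55% to 5.50% in the other colons and 2.61% to 4.24% in blood. Igkv6-23, nearly the same as Igkv6-15 at its CDR3 end, held 12.8% in the colon of mouse 7 (95% Wilson interval 12.02% to 13.6%) but only 1.76% in that of mouse 8. Igkv6-17 led the colon of mouse 9 with 9.51% (95% Wilson interval 8.90% to 10.2%), where the other colons had 1.16% to 3.80% and the blood of the same mouse 0.769%. Subgroup 6 thus provided the leading gene in 4 of 6 colon libraries, through 3 different genes.

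Igkv3-7 led the colon of mouse 4 with 7.67% (1445 of 18849 counts, 95% Wilson interval 7.30% to 8.06%). It held 3.79% in the colon of mouse 9, 0.173% to 2.49% in the other 4 and 0.654% to 1.53% in blood. Igkv4-57-1 reached 4.75% in the colon of mouse 7 and 0.0744% to 1.01% in the other colons, with 0% to 0.912% in blood. For Igkv12-44 and Igkv6-17 the blood of the mouse with the high colon share had the lowest share of the 6 bloods, and for Igkv4-57-1 the highest. For Igkv6-15, Igkv6-23, Igkv3-7 and Igkv9-124 it lay within the range of the other bloods.

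Leading genes of blood libraries held less than the leading gene of the colon in every mouse. Igkv10-96 led the blood of mice 4, 7 and 9, Igkv1-117 that of mouse 2, Igkv1-135 that of mouse 8 and Igkv6-23 that of mouse 1. Igkv10-96 held 3.84% to 7.09% in colon (median 4.45%) and 3.57% to 6.35% in blood (median 4.49%), with no difference in mean share detected (exact permutation p = 0.571). Igkv1-117 held 2.85% to 5.61% in colon and 3.69% to 6.18% in blood (exact permutation p = 0.121), and Igkv1-110 held 1.90% to 6.60% and 2.76% to 3.997% (exact permutation p = 0.173). These 3 genes were prominent in both tissues, and no difference in their mean shares was detected, which does not show equal use. Igkv1-135 was uneven in colon, with 0% in mouse 1, 0.635% and 0.636% in mice 7 and 9, and up to 3.90% in mouse 2. When shares were taken from counts per base of exon, the same 10 genes had the highest means and 11 of 12 libraries kept their leading gene, all 6 colons among them.

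**Figure D3:**
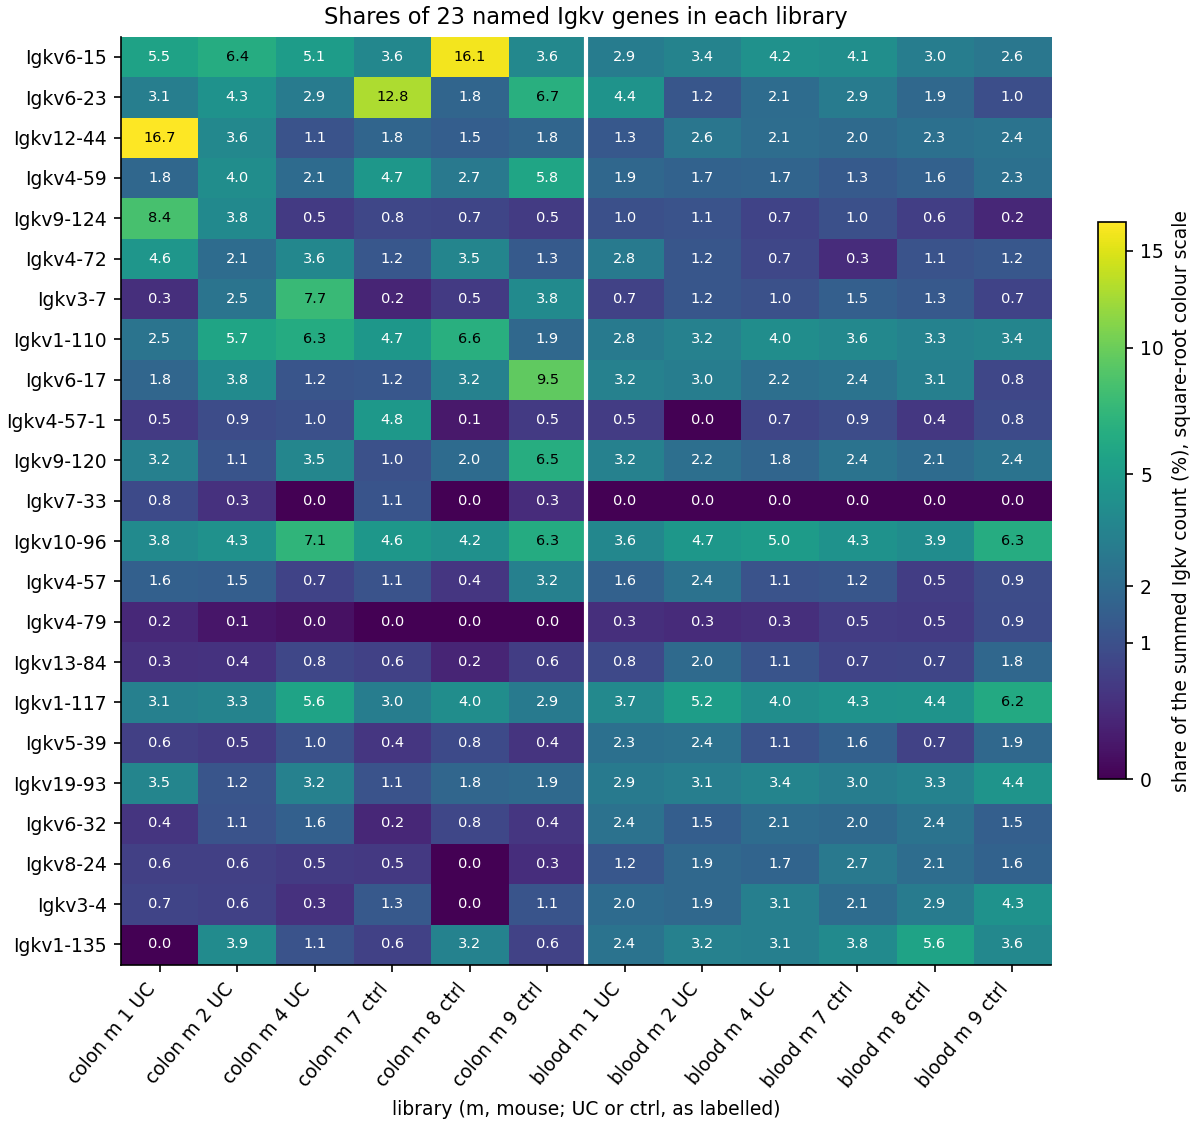
Rows are 23 Igkv genes ordered by the difference in mean share, columns are libraries, and each cell prints the share of the summed Igkv count in percent. High cells stand alone in the colon columns, such as Igkv12-44 in mouse 1 (16.7%) and Igkv6-15 in mouse 8 (16.1%), while blood columns resemble one another.

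Shares of single genes were compared between tissues for the 80 Igkv genes with a mean share of at least 0.1%, by exact two-sided permutation tests over all ways to split 12 libraries into 6 and 6. The p-values are unadjusted, and the smallest that 6 against 6 libraries allow is 0.00217. A higher share in blood at a p of at most 0.05 was found for 20 genes (25.0%) and a higher share in colon for 3 (3.75%). Among 90 Ighv genes treated the same way, 22.2% were higher in blood and 2.22% in colon, so the shares of Igkv genes past this limit were near those of Ighv genes. The 0.1% minimum is a mean over both tissues, so many of the 20 genes entered through blood alone. These were Igkv1-108, Igkv1-122, Igkv4-51, Igkv4-70, Igkv4-79, Igkv8-16, Igkv10-95, Igkv12-89 and Igkv14-126, each under 0.1% in colon on average. Such genes, for example Igkv10-95 (0.0272% in colon, 0.349% in blood) and Igkv8-16 (0.0294%, 0.336%), could only have a higher mean in blood. Part of the contrast of 20 with 3 genes therefore followed from the minimum. The 3 genes higher in colon were above the minimum in both tissues. Because each mouse gave both libraries, signs were also flipped within mice (64 ways, smallest p 0.0313), and with this replicate block 13 genes were higher in blood and 1 in colon. The 13 still include Igkv1-108, Igkv1-122, Igkv4-51, Igkv4-70, Igkv4-79 and Igkv14-126, which entered through blood alone.

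Igkv3-4, a subgroup 3 gene and the fourth annotated gene from the Igkc end of the locus, had shares without overlap between the tissues. It held 0% to 1.299% in colon (median 0.667%) and 1.90% to 4.31% in blood (median 2.48%), lower in colon in 6 of 6 mice (exact permutation p = 0.00217). In the colon of mouse 8 it had 0 of 4032 Igkv counts, which allows a share of up to 0.0744%. Igkv8-24 behaved alike, with 0% to 0.591% in colon and 1.22% to 2.74% in blood (exact permutation p = 0.00217), again lower in 6 of 6 mice.

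Igkv6-32 belongs to subgroup 6, as does Igkv6-15. Its share was 0.202% to 1.56% in colon and 1.50% to 2.40% in blood (exact permutation p = 0.00649, lower in 6 of 6 mice), and the ranges touched. Igkv13-84 had 0.174% to 0.759% in colon and 0.698% to 2.003% in blood (exact permutation p = 0.00649, lower in 6 of 6 mice), but only 62.1% of its 100-base windows were unique. Igkv5-39 had 0.377% to 1.02% in colon and 0.652% to 2.35% in blood (exact permutation p = 0.00866, lower in 5 of 6 mice, sign-flip p = 0.0938). Igkv1-135, near the far end of the locus, had 0% to 3.90% in colon and 2.41% to 5.63% in blood (exact permutation p = 0.0390, lower in 5 of 6 mice, sign-flip p = 0.0625). Neither Igkv5-39 nor Igkv1-135 passed when paired by mouse.

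The 3 genes with a higher share in colon were Igkv6-15, Igkv4-59 and Igkv4-72. Igkv4-59 had 1.85% to 5.77% in colon (median 3.35%) and 1.34% to 2.27% in blood (median 1.69%), with exact permutation p = 0.0152 and a higher share in the colon of 5 of 6 mice (sign-flip p = 0.0625). Igkv4-72, identical to it over the last 48 coding bases, had 1.23% to 4.58% in colon and 0.272% to 2.76% in blood (exact permutation p = 0.0498, higher in 6 of 6 mice, sign-flip p = 0.0313). Igkv6-15 gave exact permutation p = 0.0216 and was higher in the colon of 5 of 6 mice, which includes the 16.1% of mouse 8 (sign-flip p = 0.0625). Paired by mouse, Igkv4-72 alone of the 3 passed. With mouse 2, 7 or 8 left out, 1 gene instead of 3 passed. The large colon shares of Igkv12-44, Igkv6-23, Igkv6-17, Igkv3-7 and Igkv9-124 did not make a difference between tissues that passed, with exact permutation p from 0.0801 for Igkv6-23 to 0.639 for Igkv6-17, since each was high in 1 or a few mice.

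**Figure D4:**
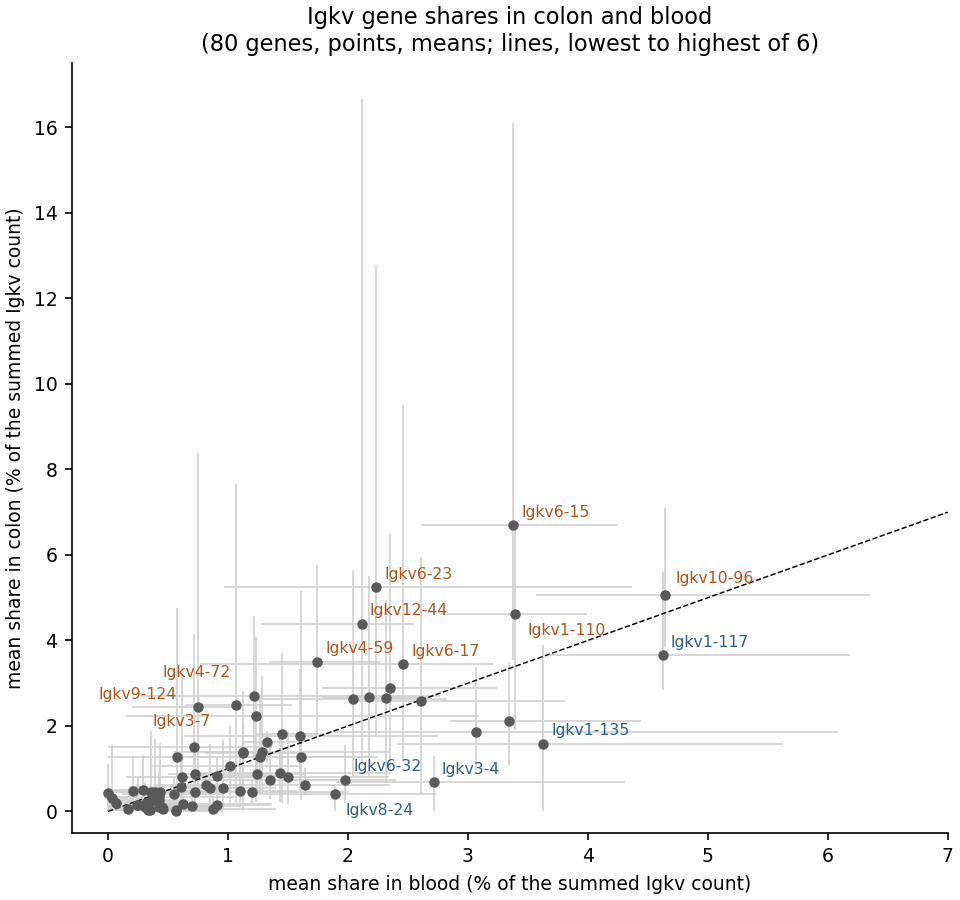
Each point is 1 of 80 Igkv genes with its mean share in blood (horizontal) and colon (vertical), in percent of the summed Igkv count, and lines run from the lowest to the highest of 6 libraries. Vertical lines are long for genes that led single colons, such as Igkv12-44 up to 16.7%, while Igkv3-4 and Igkv8-24 sit below the dashed line of equal shares.

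Ranges did not overlap for 7 of the 80 genes (8.75%), each of them higher in blood, against 6 of 90 Ighv genes. Besides Igkv3-4 and Igkv8-24 these were Igkv1-108, Igkv1-122, Igkv14-126, Igkv4-51 and Igkv4-79, named because they make up that count. They were little used, with mean shares in blood from 0.427% for Igkv1-122 to 0.878% for Igkv14-126. In colon their mean shares ran from 0.00722% for Igkv1-108 to 0.0983% for Igkv1-122, below the 0.1% minimum. They entered the comparison only through blood, so their higher mean share in blood followed from that minimum. Igkv1-108 is a pseudogene, with 0, 0, 0, 3, 0 and 0 counts in colon (mice 1, 2, 4, 7, 8 and 9) and 10, 10, 28, 35, 28 and 16 in blood. The 19 pseudogenes together held 0% to 0.188% of the Igkv count in colon and 0.902% to 2.16% in blood, without overlap.

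Detection followed the same lines. Of the 117 members, 45 had a count in all 12 libraries, 48 in all colons and 59 in all bloods. Counts were present in blood only for 18 genes, with at most 21 counts in a library, and in colon only for 3 genes, with at most 77. The most counted of these 3 was Igkv7-33, the single member of subgroup 7, with 23, 38, 0, 77, 0 and 23 counts in colon and 0 in every blood library, where 3 counts would be 0.0488% to 0.150% of the Igkv count.

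Colon libraries differed more from one another than blood libraries did. Across the 80 genes the median coefficient of variation of a gene's share was 0.791 over colons and 0.410 over bloods, and it was larger in colon for 67 genes. For 90 Ighv genes the medians were 0.909 and 0.408, and colon was larger for 76. A mean near 0 raises this coefficient, and genes that entered through blood alone had such means in colon. The SD itself was larger in colon for 55 of the 80 Igkv genes and 66 of the 90 Ighv genes. The overlap of 2 libraries, the sum over genes of the smaller of the 2 shares, was 73.1% to 86.6% between bloods (15 pairs, median 79.3%) and 51.7% to 68.0% between colons (15 pairs, median 59.6%).

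A colon was no closer to the blood of its own mouse than to that of others. Overlap was 55.3% to 65.6% between colon and blood of 1 mouse (6 pairs, median 62.9%) and 51.3% to 71.5% between different mice (30 pairs, median 62.3%). Ranked by overlap, the blood of the same mouse came first for the colon of mouse 1 only, and otherwise ranked 5, 3, 2, 5 and 6 of 6 for mice 2, 4, 7, 8 and 9. These pairs share libraries and are not independent.

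**Figure D5:**
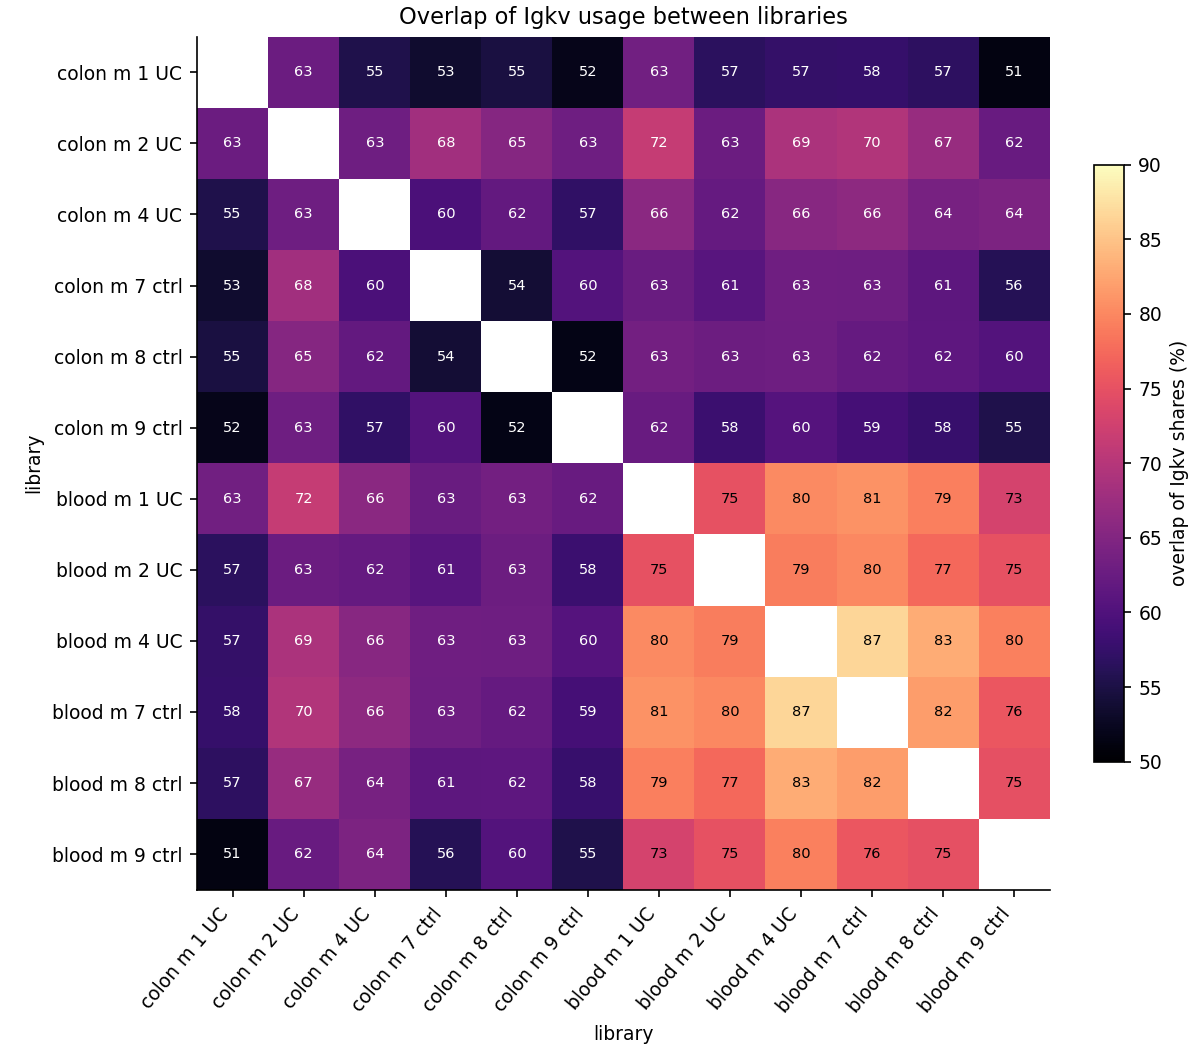
Cells give the overlap of Igkv shares in percent for each pair of 12 libraries, with the diagonal left blank. The block of blood libraries (73.1% to 86.6%) stands above the block of colon libraries (51.7% to 68.0%) and above the colon with blood pairs (51.3% to 71.5%).

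Added up by subgroup, the number after Igkv that groups genes by sequence likeness, the ranges of the tissues overlapped for every subgroup except 14. Many subgroups still went mostly 1 way. Subgroups 4, 9 and 12 were higher in the colon of 5 of 6 mice, and subgroups 1, 3, 8, 13, 16, 17 and 19 in that of 1 of 6. Subgroup 6 (9 genes) held 18.5% ± 4.70 (SD, n = 6) in colon and 13.6% ± 2.58 in blood, subgroup 4 (30 genes) 16.7% ± 1.47 and 14.4% ± 2.58, and subgroup 1 (11 genes) 10.4% ± 3.72 and 13.8% ± 1.90. Subgroup 14 (5 genes) was the one whose ranges were apart, with 1.83% to 3.65% in colon and 4.16% to 7.52% in blood, lower in the colon of 6 of 6 mice. Subgroup 12 (8 genes), which holds Igkv12-44, had 7.04% to 18.0% in colon and 6.01% to 7.69% in blood. Sums over members carry no p-value here.

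By position, the 80 annotated genes nearer to Igkc, of which 62 are members, held 53.4% to 69.2% of the Igkv count in colon and 44.7% to 56.1% in blood. Genes on the minus strand (68 members) held 56.0% to 76.4% in colon and 53.1% to 62.3% in blood. Both pairs of ranges overlapped. The highest minus-strand share, in the colon of mouse 1, came with Igkv12-44 and Igkv9-124, both on that strand.

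Levels of single genes were also compared between tissues on counts, with edgeR's quasi-likelihood test over all genes (called at a Benjamini-Hochberg adjusted p of at most 0.05 and a log2 fold change beyond 1). Of 23258 genes tested, 37.7% were higher and 20.8% lower in colon. Of the 78 Igkv genes that passed the filter on low counts, 22 (28.2%) were lower in colon and 1 (1.28%) was higher, so with this scaling the share of members called lower was above, and that called higher below, the share among all genes. The median log2 fold change of colon over blood was -0.88 for the 78 Igkv genes and 0.46 for all genes tested. The direction rests on the scaling: with library size alone, 4 Igkv genes (5.13%) were lower, against 7.55% of all genes, and 33 (42.3%) higher, against 76.9% of all genes. The share of members called lower then lay below that of all genes. With library size alone the Igkv median was 1.28 and the median of all genes was 2.57. Under both scalings the Igkv median lay below that of all genes.

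Igkv8-24 was lower in colon by edgeR with a log2 fold change of -2.78 (SE 0.73, adjusted p = 0.00522) and Igkv3-4 with -2.51 (SE 0.77, adjusted p = 0.0128). Igkv6-32 gave -1.98 (SE 0.60, adjusted p = 0.0117), Igkv5-39 -1.80 (SE 0.51, adjusted p = 0.00841) and Igkv19-93 -1.25 (SE 0.42, adjusted p = 0.0203). Igkv4-79 had the smallest p, with 6, 7, 6, 0, 0 and 0 counts in colon and 10, 5, 19, 27, 14 and 26 in blood (adjusted p = 1.16e-05). The gene called higher was Igkv7-33, with the counts given above (adjusted p = 0.0313), and it lost its call when mouse 1, 2, 7 or 9 was left out and under limma-voom. Igkv4-79 passed the filter on low counts through blood, and Igkv7-33, at 0 in every blood library, through colon. The direction of each was therefore partly set by that filter. Igkv12-44 (-0.31), Igkv6-15 (0.27), Igkv6-17 (-0.17) and Igkv9-124 (0.21) were not called, nor was Igkv3-7 (0.85), on the log2 scale. With library size alone the sign turned for Igkv6-32 (0.20), Igkv5-39 (0.28), Igkv19-93 (0.87), Igkv13-84 (0.49) and Igkv1-135 (0.45), whereas Igkv3-4 (-0.40) and Igkv8-24 (-0.64) stayed below 0 without a call.

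The genes that mark the cells carrying kappa chains moved between the tissues in both directions. All 8 B cell markers were lower in colon by edgeR, among them the B cell receptor subunits Cd79a (log2 fold change -3.25, adjusted p = 0.000572) and Cd79b (-6.10, adjusted p = 7.07e-06). Ighm, the constant gene of IgM, gave -4.89 (adjusted p = 1.74e-05) and Ighd, that of IgD, -4.73 (adjusted p = 0.000206). With library size alone all 8 B cell markers stayed below 0 and 6 were called lower. Igha, the constant gene of IgA, was higher by 3.10 (adjusted p = 0.000165) and Jchain by 3.48 (adjusted p = 1.48e-05). Of the 8 plasma cell markers, 3 were higher (Jchain, Sdc1, Prdm1) and 2 lower (Mzb1, Pou2af1), and Sdc1 is also made by epithelium. With library size alone 6 were higher and 2 lower. Summed in CPM, B cell markers ranged from 2.92 to 56.8 in colon and from 142.5 to 341.3 in blood, and plasma cell markers from 395.5 to 558.1 and from 30.2 to 71.5. Most plasma cell marker counts in colon were of Sdc1 (12897 to 26419) and Xbp1 (6260 to 16309). Jchain had 2944 to 18861 counts in colon and 89 to 273 in blood, but Mzb1 had 18 to 231 and 169 to 664. Pou2af1 had 57 to 551 and 2220 to 4380. The plasma cell sum therefore does not stand for each marker. No B cell marker was at 0 in all colons, and Fcer2a was at 0 in 1. Fewer cells of a type and less RNA per cell cannot be told apart in such bulk samples, and the part of cell makeup in the Igkv results was not tested.

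Other light-chain and recombination genes were read from the same fit. Igkc was higher in colon by 1.17 (adjusted p = 0.00851), a call lost without mouse 4 or 9, while all 5 Igkj genes were lower, from Igkj1 (-2.26, adjusted p = 0.000967) to Igkj3 (-5.31, adjusted p = 1.82e-05). The lambda constant genes Iglc1 (-2.11), Iglc2 (-4.33) and Iglc3 (-3.19) were called lower, as were the lambda variable genes Iglv1 (-1.20) and Iglv3 (-4.73), whereas Iglv2 (-2.07, adjusted p = 0.0623) was not. With library size alone Iglv1 turned to 0.92 and Iglv2 moved to 0.00, neither of them called, and the calls of Igkj1 (-0.10), Igkj2 (-0.56), Iglc1 (0.00) and Iglc3 (-1.04) were lost. Iglv1 also lost its call without mouse 4, 7 or 8. Lambda variable genes made up 5.78% to 20.3% of all light-chain variable counts in colon and 14.5% to 32.9% in blood. Of 6 tested genes of V(D)J recombination and precursor B cells, Rag1, which cuts DNA at V gene borders, Dntt and Dclre1c were lower and none was higher. This too rests on the scaling: with library size alone 3 were higher and 2 lower, and Dclre1c turned from -1.14 to 0.94 without a call. In CPM, the 8 genes of this list summed to 28.2 to 33.9 in colon and 7.77 to 22.5 in blood. Nearly all of the colon counts were of Lig4, Xrcc4 and Dclre1c, whereas Rag1, Rag2, Dntt, Vpreb1 and Igll1 each had 0 to 22 counts in a colon library. The sum is therefore no measure of those other genes. Dclre1c also lost its call without mouse 1 or 9. Rag1 had 0 to 3 counts in colon and 3 to 86 in blood.

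Libraries labelled UC were compared with libraries labelled control within each tissue, 3 against 3. By edgeR, 0 of 67 Igkv genes tested in colon were called, against 0.00450% of all genes, with 4 at an unadjusted p under 0.05. In blood 0 of 73 were called, against 0% of all genes, with 0 at an unadjusted p under 0.05. DESeq2 also called 0 in both tissues, with 5 and 0 at an unadjusted p under 0.05. The median log2 fold change of UC over control was 0.54 for Igkv genes in colon (-0.01 for all genes) and 0.30 in blood (0.04 for all genes). Without mouse 4, which had the highest Igkv sum in both tissues, these medians were -0.33 and -0.02.

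The gene with the smallest p in colon was Igkv9-124, with 227, 418 and 89 counts labelled UC and 53, 29 and 43 labelled control (log2 fold change 2.18, SE 0.64, unadjusted p = 0.0129, adjusted p = 1.00 by edgeR). In blood it was Igkv4-57, with 54, 47 and 68 counts against 62, 16 and 27 (1.04, SE 0.49, unadjusted p = 0.0654, adjusted p = 1.00 by edgeR). The difference of the UC effect between tissues was tested as an interaction, which called 0 of 78 Igkv genes against 0.00430% of all genes, with 1 at an unadjusted p under 0.05. That gene was Igkv4-79 (adjusted p = 0.605 by edgeR). Effective numbers of genes overlapped between labels, at 31.6, 45.8 and 40.2 against 37.3, 32.4 and 36.7 in colon, and at 60.8, 53.8 and 62.5 against 63.1, 58.4 and 50.8 in blood. With 3 against 3 libraries whose labels did not go with S100a8, a difference in Igkv levels between UC and control was not detectable. That does not show that there was none. Usage, as the share of single genes, was not tested between the labels.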

How the data were processed

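Total RNA was sequenced from colon and whole blood of 6 mice, giving 12 libraries, grouped by the labels' tissue and disease fields. Per the study's methods, the authors aligned reads to GRCm38 with STAR, quantified genes with StringTie 1.3.4c without a strand setting on Ensembl 92, and deposited read counts per gene derived from StringTie coverage. They also deposited normalized tables (signal: counts divided by DESeq2 size factors, each tissue alone), used here to choose members and for levels of S100a8. Reads of V genes that carry junctions or mutations, or that fit several close relatives, may be lost or split by such counting. Members and lists were chosen with earlier results of these data known.

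Shares were computed from counts with Python 3.11.15 and tested by exact permutation with a 0.1% minimum mean share. Counts of all genes that passed filterByExpr were fitted with edgeR 4.0.16 (TMM), with DESeq2 1.42.0 and limma 3.58.1 voom as alternatives. The edgeR fit was checked on simulated counts with 200 genes changed 4-fold, equally up and down, around a profile common to both tissues. That simulation held no large shift between tissues, so it could not check the choice of scaling. The share tests were checked on small examples and random values. Named genes were the 10 with the highest mean share, the 5 largest and 5 smallest colon to blood ratios among genes of at least 1%, the leader of each library, the smallest p of each label comparison, and the called genes with the smallest p in each direction between tissues. Libraries of a group came from separate mice. Colon and blood carry the same mouse numbers, and the study took both from the same animals, so the numbers pair the samples. Annotation and sequences came from GENCODE vM21. Shares of a library cannot be resolved below 3 counts, which is 0.0159% to 0.150% of its Igkv sum, and the counting intervals are 95%. The value of 1 listed marker is not reported here.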

Additional observations from a re-analysis of the deposited data

Results flagged for a closer look

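In 6 of the 52 groups of 6 libraries examined (23 named genes in each tissue, and summary values), 1 library stood apart from the others by a gap that was large beside the range of its group. A chance rate of about 1 in 20 groups assumes normally distributed values, which shares bounded at 0 need not be. Many of the named genes were also chosen because they led a library or had an extreme ratio of colon to blood. The number found here therefore cannot be set against that rate. Igkv12-44 held 16.7% in the colon of mouse 1, where the next colon had 3.61%. Igkv6-15 held 16.1% in the colon of mouse 8, next 6.39%. Igkv6-17 held 9.51% in the colon of mouse 9, next 3.80%. Igkv4-57-1 held 4.75% in the colon of mouse 7, next 1.01%. Igkv4-79 held 0.222% in the colon of mouse 1, which is 6 counts, next 0.0632%. Igkv19-93 held 4.44% in the blood of mouse 9, next 3.38%. Of these, 5 were in colon, and each was the highest of its group. The cause was not tested.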

How the results depend on the processing

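Between tissues, scaling decided the counts of called Igkv genes: library size alone gave 33 higher (42.3%, against 76.9% of all genes) and 4 lower (5.13%, against 7.55%) in place of 1 and 22, and turned the log2 fold change of 12 of 23 named genes, namely Igkv1-110 (2.09), Igkv1-117 (1.35), Igkv1-135 (0.45), Igkv10-96 (1.84), Igkv12-44 (1.80), Igkv13-84 (0.49), Igkv19-93 (0.87), Igkv4-57 (1.78), Igkv5-39 (0.28), Igkv6-17 (2.11), Igkv6-32 (0.20) and Igkv9-120 (2.0). DESeq2's size factors, DESeq2, limma-voom, no filter on low counts and the replicate block by mouse gave 21 to 29 lower genes, with 26 under the block, and 1 higher except for 0 with limma-voom. With 1 mouse left out, 0 to 1 were higher and 16 to 22 lower. Label comparisons and their interaction gave 0 called Igkv genes under every alternative run. For shares, the replicate block gave 1 gene higher in colon and 13 in blood instead of 3 and 20, a minimum share of 0.5% gave 8 higher in blood, and leaving out 1 mouse gave 1 to 4 and 16 to 21. The mean summed Igkv CPM in blood moved from 31.1 to 76.5 when only genes of the normalized table were counted. Mean effective numbers stayed at 35.7 to 38.5 in colon and 55.9 to 59.7 in blood under every alternative run. Depth limits single genes in blood, where 1997 to 6154 Igkv counts were spread over 78 to 100 genes.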

Other observations

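The heavy-chain variable (Ighv) genes, counted in the same libraries, had 5 different leaders over the 6 colons. Ighv2-9-1 held 15.3% of the summed Ighv count in the colon of mouse 1, Ighv7-3 16.5% in that of mouse 2 and 10.2% in that of mouse 7, Ighv3-6 13.2% in that of mouse 9, Ighv1-72 8.62% in that of mouse 8 and Ighv9-4 6.43% in that of mouse 4. In blood Ighv1-26 led 5 of 6 libraries with 5.13% to 9.11%, and Ighv9-3 led that of mouse 1 with 5.35%. The overlap of Ighv shares was 72.4% to 86.8% between bloods, 48.3% to 66.7% between colons and 56.4% to 63.3% between the colon and blood of 1 mouse.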
